A study of Sus scrofa with 70 samples.

Results

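The acrosome proteins are 9 genes of the pig whose products sit in the acrosome of the sperm head or hold it to the nucleus: ACR, ACRBP, ZPBP, ZPBP2, SPACA1, SPACA3, SPACA4, SPAM1 and DPY19L2. They were taken by gene symbol from the merged annotation, where 9 of 9 were found, among 35680 genes with a value in at least 1 RNA-seq library. The acrosome is a secretory vesicle that forms from the Golgi in round spermatids and spreads over the nucleus as a cap. Its contents are released when the sperm meets the egg coat, the zona pellucida, and help the sperm to pass the cumulus and the zona. Its proteins are made late in spermatogenesis in the testis, and sperm then mature and are stored in the epididymis.

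The samples came from 12-month-old boars of the Banna mini-pig inbred line (BMI) and the Diannan small-ear pig (DSE), with no treatment named. For each breed the testis, the epididymis and 3 accessory sex glands that add fluid to the semen (vesicular, prostate and bulbourethral) were profiled. Each breed and gland had 3 RNA-seq libraries (30 in all) and 1 Iso-seq library (10 in all), the latter giving full-length reads that each cover 1 transcript molecule end to end. BMI is an inbred line, so its boars are close relatives. No label tied a library number to an animal, so p-values measure the spread between these libraries. RNA-seq levels are given as TPM, a share of all transcripts in a library that is corrected for transcript length, summed over the transcripts of a gene. The table of TPM carries no read depth, and that of Iso-seq holds 231413 to 458697 full-length reads per library, counted over the isoforms it lists.

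Gland identity was checked with marker lists. Summed over the list, spermatid and sperm markers gave 26592 to 121583 TPM in testis and at most 20.6 TPM in the accessory glands, and vesicular gland markers gave 259239 to 352809 TPM in vesicular gland. Markers of epididymis epithelium, prostate and bulbourethral gland were highest in their own glands, at 1649 to 32090, 88858 to 179229 and 8302 to 15064 TPM. Several libraries stood apart. DSE testis replicate 2 had the lowest sum of spermatid and sperm markers in testis (median 83270 TPM) and the highest of Leydig cell markers (63514 TPM, median 22875) and of Sertoli cell markers (618 TPM, median 242). BMI prostate replicate 2 gave 220135 TPM for vesicular gland markers, where the prostate median was 7.35 TPM. BMI epididymis replicate 1 gave 4291 TPM for vesicular gland markers (epididymis median 202), and BMI epididymis replicate 2 had the most epididymis epithelium markers (median 5053). For some results that change without such a library, the value without it is also given. For others only the direction of the change is given, and not every change is listed. In bulk tissue, fewer cells of a type and less RNA per cell cannot be told apart.

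The genes fell on 6 chromosomes of Sscrofa11.1. ACR (ENSSSCG00000021265), for acrosin, the serine protease of the acrosome, lay at chr5:30127-36005 on the minus strand, and ACRBP (ENSSSCG00000000700), whose product binds the acrosin precursor, at chr5:64037095-64047851 on the plus strand. SPAM1 (ENSSSCG00000016601), for the sperm hyaluronidase PH-20, lay at chr18:23589952-23598813 on the minus strand. ZPBP (ENSSSCG00000015627) and ZPBP2 (ENSSSCG00000017493), for proteins of the acrosomal matrix that bind the zona pellucida, lay at chr9:136103852-136186792 and chr12:22450656-22462918, both on the minus strand. SPACA1 (ENSSSCG00000004308), for a protein of the acrosomal membrane, lay at chr1:56378101-56395493 on the plus strand. SPACA3 (ENSSSCG00000017726), for a lysozyme-like protein, lay at chr12:42046728-42055036 on the minus strand, and SPACA4 (ENSSSCG00000025441), for a small membrane-anchored protein of the Ly6 family, at chr6:53968485-53968865 on the plus strand. DPY19L2 (ENSSSCG00000016663), for a protein of the nuclear envelope that holds the acrosome to the nucleus and is thus not in the vesicle itself, lay at chr18:38693986-38765943 on the plus strand. The annotation held 1 transcript of ACR and of SPACA4, 2 of SPACA1, 4 of SPACA3 and of SPAM1, 6 of ACRBP and of ZPBP, 10 of ZPBP2 and 17 of DPY19L2.

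Several splice forms of these genes differed by 1 exon or part of one within the coding sequence. The stretches below were read from the Sscrofa11.1 genome on the strand of the gene. Bases that a splice form leaves out are in capitals, with 20 flanking bases on each side in lower case. For DPY19L2 the capitals are instead bases that the Ensembl model leaves as a gap. The stretches are shown because forms of ACRBP, SPAM1, ZPBP2 and DPY19L2 named below differ by them. For ACRBP (plus strand), exon 2 is chr5:64037531-64037749 (219 bases), its first 60 bases are chr5:64037531-64037590, exon 7 is chr5:64044560-64044739 (180 bases) and exon 9 is chr5:64046046-64046129 (84 bases). Exon 3 of SPAM1 is chr18:23594416-23594505 (minus strand, 90 bases). The end of exon 7 of ZPBP2 is chr12:22457050-22457122 (minus strand, 73 bases), and the stretch in exon 1 of DPY19L2 is chr18:38694300-38694313 (plus strand, 14 bases).
ACRBP exon 2: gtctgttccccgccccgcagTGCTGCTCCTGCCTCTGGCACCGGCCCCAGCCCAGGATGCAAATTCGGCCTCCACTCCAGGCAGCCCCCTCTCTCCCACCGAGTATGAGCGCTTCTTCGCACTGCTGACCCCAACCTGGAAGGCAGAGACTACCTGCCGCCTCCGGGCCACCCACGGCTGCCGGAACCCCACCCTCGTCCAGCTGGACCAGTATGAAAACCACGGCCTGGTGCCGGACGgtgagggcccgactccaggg
ACRBP start of exon 2: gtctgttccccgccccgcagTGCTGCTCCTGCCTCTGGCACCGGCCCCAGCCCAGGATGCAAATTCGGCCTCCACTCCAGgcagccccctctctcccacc
ACRBP exon 7: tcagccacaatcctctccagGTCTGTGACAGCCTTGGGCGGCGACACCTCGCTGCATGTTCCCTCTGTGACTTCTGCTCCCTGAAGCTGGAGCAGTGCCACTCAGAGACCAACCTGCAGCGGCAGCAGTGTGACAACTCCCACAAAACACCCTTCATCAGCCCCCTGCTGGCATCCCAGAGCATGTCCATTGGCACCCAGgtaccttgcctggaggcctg
ACRBP exon 9: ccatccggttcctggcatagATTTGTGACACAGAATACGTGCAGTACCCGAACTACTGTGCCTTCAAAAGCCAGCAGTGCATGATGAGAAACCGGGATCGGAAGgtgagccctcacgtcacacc
SPAM1 exon 3: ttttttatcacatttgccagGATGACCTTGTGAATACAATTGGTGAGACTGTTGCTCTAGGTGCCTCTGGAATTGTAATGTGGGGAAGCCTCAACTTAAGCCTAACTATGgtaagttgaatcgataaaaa
ZPBP2 end of exon 7: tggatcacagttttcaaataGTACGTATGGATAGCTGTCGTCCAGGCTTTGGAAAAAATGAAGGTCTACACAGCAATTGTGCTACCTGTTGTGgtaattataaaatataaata
DPY19L2 part of exon 1: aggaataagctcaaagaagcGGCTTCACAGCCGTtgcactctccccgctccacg
The 4 ACRBP stretches and SPAM1 exon 3 are multiples of 3 bases, so leaving them out keeps the reading frame. The 73 bases of ZPBP2 and the 14 bases of DPY19L2 are not.

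Each of the 9 genes was highest in testis. ACRBP was the most abundant, at 861, 853 and 962 TPM in BMI testis and 784, 239 and 763 TPM in DSE testis. It was above the other 8 genes in each of the 6 testis libraries, and DSE replicate 2 was far below the other 5. SPACA4 followed, at 566, 418 and 647 TPM in BMI and 142, 111 and 490 TPM in DSE, so that 2 DSE libraries were well below the third.

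ZPBP measured 365, 439 and 413 TPM in BMI testis and 384, 125 and 357 TPM in DSE testis. ZPBP2 measured 312, 383 and 318 TPM in BMI and 324, 97.4 and 289 TPM in DSE. In both zona-binding genes the lowest library was DSE replicate 2 and the other 5 lay close together. ACR measured 417, 390 and 493 TPM in BMI and 290, 114 and 361 TPM in DSE. SPAM1 measured 40.8, 45.2 and 51.1 TPM in BMI and 22.3, 12.0 and 43.0 TPM in DSE. For ACR the breeds did not overlap, while for SPAM1 DSE replicate 3 lay within the BMI range.

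SPACA1 measured 302, 248 and 385 TPM in BMI testis and 121, 71.7 and 273 TPM in DSE testis. SPACA3 measured 239, 192 and 340 TPM in BMI and 132, 62.3 and 223 TPM in DSE. DSE replicates 1 and 2 were below every BMI library in both genes, and DSE replicate 3 was within the BMI range. DPY19L2 measured 169, 205 and 127 TPM in BMI and 128, 51.4 and 161 TPM in DSE, with overlap between the breeds.

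As means ± SD over 6 testis libraries, the order was ACRBP (744 ± 257 TPM), SPACA4 (396 ± 222), ZPBP (347 ± 113), ACR (344 ± 131), ZPBP2 (287 ± 98.2), SPACA1 (233 ± 117), SPACA3 (198 ± 95.1), DPY19L2 (140 ± 52.2) and SPAM1 (35.7 ± 15.2). From SPACA4 to DPY19L2, neighbours in this order differed by less than the larger of their SDs. The SPAM1 libraries (12.0 to 51.1 TPM) did not overlap those of DPY19L2 (51.4 to 205 TPM), the next gene up. The 9 genes together made up 2725 ± 1013 TPM of the testis libraries and 60.7 ± 35.1 TPM of the epididymis libraries (n = 6 each). Their sum was 5.53 ± 2.48 TPM for vesicular, 3.87 ± 1.62 TPM for bulbourethral and 2.89 ± 1.42 TPM for prostate gland (n = 6 each).

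**Figure D1:**
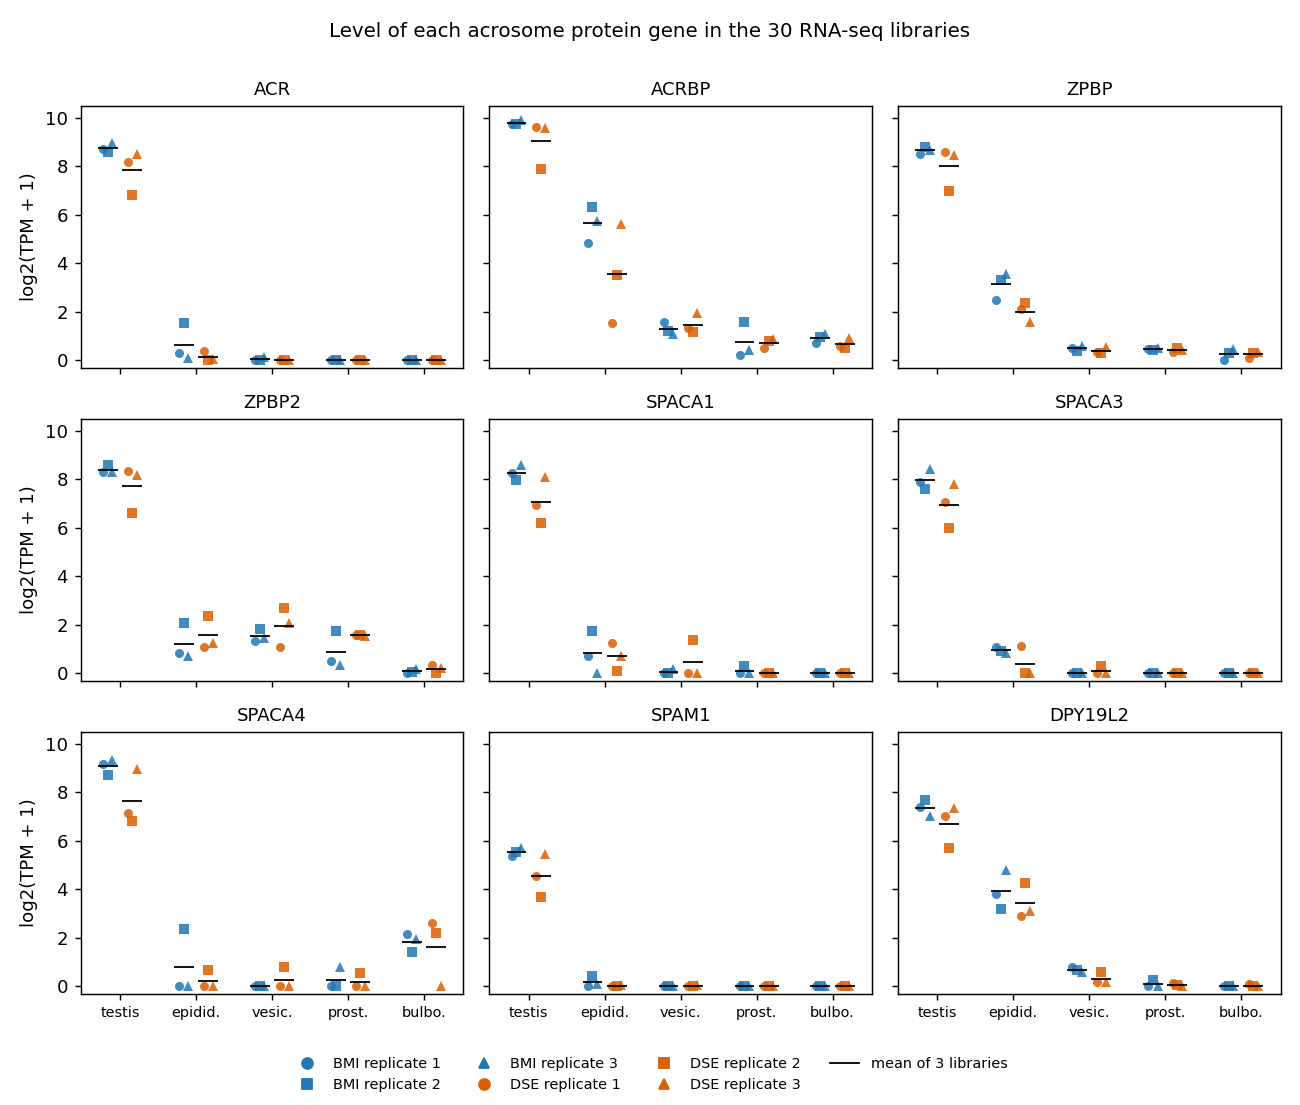
Level of each of the 9 genes in every RNA-seq library, in TPM on a log2(TPM + 1) scale, by gland and breed, 1 point per library. The testis points, 12.0 to 962 TPM, lie above those of the other 4 glands for every gene, and ACRBP, DPY19L2 and ZPBP are the genes with the highest epididymis points.

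The first comparison asked how far testis differed from the other glands. Fitted with limma on log2(TPM + 1), 9 of 9 genes were higher in testis than in the mean of the other 4 glands, where 34.5% of the 19911 genes tested were higher. The difference was 8.19 ± 0.18 (SE) for ACR, 7.54 ± 0.35 for ACRBP and 5.03 ± 0.14 for SPAM1 on this log2 scale, these being the enzymes and the acrosin-binding protein. It was 7.41 ± 0.18 for ZPBP and 6.94 ± 0.25 for ZPBP2. The membrane and lysozyme-like genes gave 7.40 ± 0.24 (SPACA1), 7.28 ± 0.18 (SPACA3) and 7.70 ± 0.34 (SPACA4), and DPY19L2 gave 5.96 ± 0.21. Over the 9 genes the median was 7.40, beside a median of 0.31 over all genes tested. The highest limma adjusted p was 2.26e-16, for ACRBP. The pseudocount of 1 makes these differences smaller than the ratio of the levels.

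Against each gland alone, 9 of 9 genes were again higher in testis, with shares of all genes of 29.3% against epididymis, 44.8% against vesicular gland, 36.5% against prostate gland and 33.3% against bulbourethral gland. The smallest of these differences was that of DPY19L2 against epididymis, 3.35 ± 0.27. The 6 testis libraries lay above all 24 others for 9 of 9 genes, as they did for 23.8% of genes. Without DSE testis replicate 2 the 9 differences from the other glands were between 5.24 (SPAM1) and 8.44 (ACR).

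The second comparison asked what was left outside testis. In epididymis, ACRBP, DPY19L2 and ZPBP were found in every library. ACRBP measured 28, 79.8 and 53.2 TPM in BMI epididymis and 1.88, 10.7 and 47.7 TPM in DSE epididymis. Its spread was wide, with a mean of 36.9 ± 29 TPM (n = 6), and the lowest library, DSE replicate 1, was at the level of the vesicular gland (1.11 to 2.90 TPM).

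DPY19L2 measured 12.8, 8.20 and 27.1 TPM in BMI epididymis and 6.45, 18.3 and 7.65 TPM in DSE epididymis (mean 13.4 ± 8.0, n = 6), and no accessory gland library passed 0.751 TPM. ZPBP measured 4.70, 9.06 and 10.7 TPM in BMI and 3.33, 4.09 and 2.01 TPM in DSE (mean 5.65 ± 3.44, n = 6), against at most 0.505 TPM in the accessory glands. For both genes the epididymis libraries did not overlap those of the accessory glands.

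The other 6 genes were low in epididymis. ZPBP2 ranged from 0.634 to 4.18 TPM and SPACA1 from 0 to 2.36 TPM. SPACA3 was at most 1.19 TPM, ACR at most 1.9 TPM and SPAM1 at most 0.326 TPM. SPACA4 was listed at 0 in 4 of 6 libraries and at 4.21 TPM in BMI replicate 2. That library held the highest value of SPACA1, SPACA4, ACR, SPAM1 and ACRBP in epididymis.

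Of the 9 genes, 6 reached 1 TPM in at least 3 of the 24 libraries outside testis, and ACR, SPACA3 and SPAM1 entered the fit through testis alone. Against the mean of the 3 accessory glands, limma called 3 genes higher in epididymis. Of all genes tested, which include others that entered through testis alone, 17.6% were called higher, so the shares are not compared. ACRBP differed by 3.63 ± 0.36 (adjusted p = 9.05e-09), DPY19L2 by 3.48 ± 0.22 (adjusted p = 3.58e-12) and ZPBP by 2.19 ± 0.18 (adjusted p = 6.58e-10), in limma's test on the log2(TPM + 1) scale. SPACA1 (0.66 ± 0.24) and SPACA3 (0.64 ± 0.19) had limma adjusted p of 0.0254 and 0.0054 but were under the minimum difference of 1 log2. ACR (0.39), ZPBP2 (0.35), SPAM1 (0.09) and SPACA4 (-0.18) did not pass. Without BMI epididymis replicate 2 the values of ACR, ZPBP2 and SPAM1 were smaller and that of SPACA4 was more negative. With a pseudocount of 0.1, which gives low levels more weight, 6 of 9 genes were called, ACR, SPACA1 and SPACA3 being added. In that setting 6345 of all 19911 genes were called in either direction. With size factors in place of plain TPM the value of ZPBP2 turned to -0.01.

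Set against the mean testis level of the same gene, the epididymis libraries held 4.6% to 19.3% for DPY19L2. Part of it was on forms at 0 TPM in testis, given with its isoforms. The libraries held 0.253% to 10.7% for ACRBP and 0.578% to 3.09% for ZPBP. The other 6 genes held at most 1.45%. The summed spermatid and sperm markers held 0.0293% to 1.36% of their mean testis level in the same libraries (24.2 to 1123 TPM), and 8 of 12 were called higher in epididymis than in the accessory glands, where 17.6% of all genes were. Of these 8, GAPDHS, the glycolytic enzyme of the sperm tail, held 1.35% to 9.34%, PRM1, a protamine that packs sperm DNA, held 0.00206% to 1.44%. TSSK6, a kinase of late spermatids and none of the 8, was listed at 0 in each epididymis library. The part of these markers in the epididymis levels of the 9 genes was not tested.

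**Figure D2:**
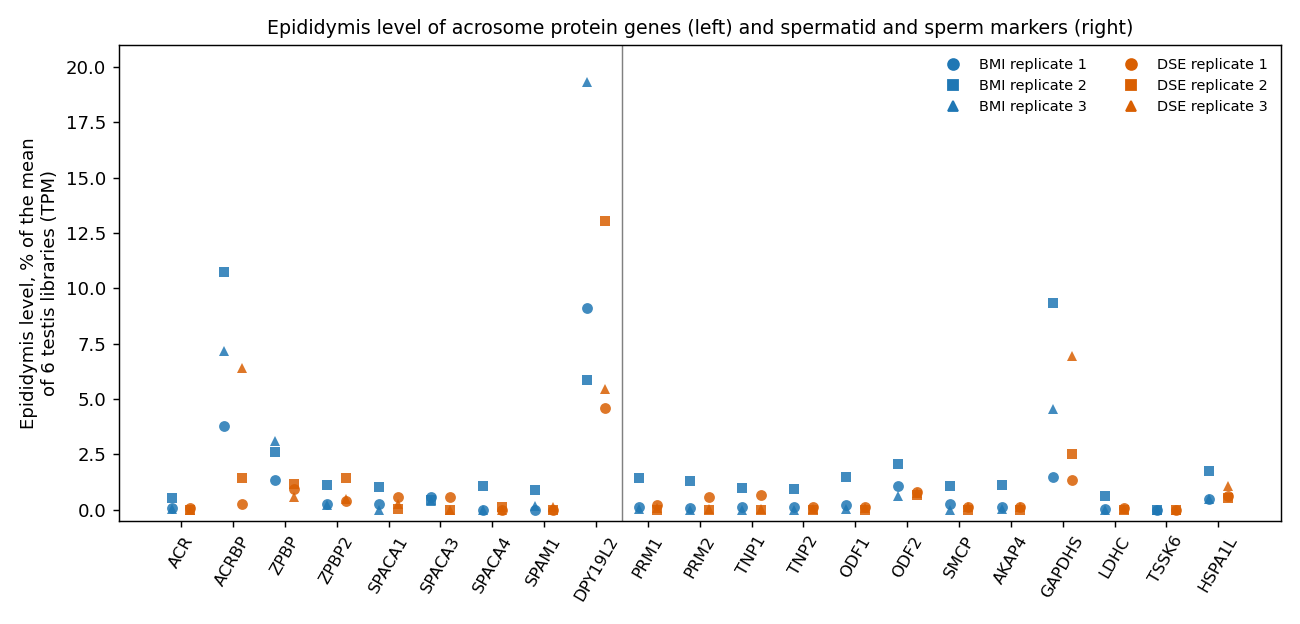
Level in each of the 6 epididymis libraries as a percent of the mean testis level of the same gene, for the 9 genes and for spermatid and sperm markers. DPY19L2 reaches 19.3%, ACRBP 10.7% and ZPBP 3.09%, and the other 6 genes stay at or below 1.45%.

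Among the accessory glands the levels were low and few differences passed the test. ACR, SPACA3 and SPAM1 were listed at 0 in every prostate and bulbourethral gland library, and SPACA1 in every bulbourethral gland library. ZPBP2 had the highest mean in vesicular gland, from 1.13 to 5.45 TPM (mean 2.60 ± 1.59, n = 6), though ACRBP was above it in replicate 1 of each breed, and it was at most 0.276 TPM in bulbourethral gland. SPACA4 was the highest in bulbourethral gland, at 3.41, 1.65 and 2.87 TPM in BMI and 5.18, 3.64 and 0 TPM in DSE, against at most 0.742 TPM in vesicular or prostate gland. The library at 0, DSE replicate 3, also held the most muscle markers of that gland (1327 TPM, median 172) and the fewest bulbourethral gland markers (8302 TPM, median 9872), and their part in this value was not tested.

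ZPBP2 was higher in vesicular gland than in bulbourethral gland by 1.61 ± 0.32 (limma adjusted p = 0.000188), and in prostate gland by 1.08 ± 0.32 (limma adjusted p = 0.0190). SPACA4 was lower in vesicular gland than in bulbourethral gland by 1.59 on the log2 scale (limma adjusted p = 0.00292) and in prostate gland by 1.5 (limma adjusted p = 0.0137). ACRBP, ZPBP2 and SPACA4 reached 1 TPM in at least 3 libraries of vesicular and bulbourethral gland. Only ZPBP2 and SPACA4 did so in prostate and bulbourethral gland. The rest could hardly be called here, so no share of the 9 is read from these calls. With size factors ACRBP was also called in vesicular against bulbourethral gland (1.13 ± 0.44, limma adjusted p = 0.0479). The share of all genes called was 27.8% for vesicular against bulbourethral gland and 7.65% for prostate against bulbourethral gland. Between vesicular and prostate gland limma called neither ACRBP nor ZPBP2, the 2 members that reached 1 TPM in at least 3 of those libraries, where 14.8% of all genes were called, and the lowest unadjusted limma p of a member was 0.115. Without BMI prostate replicate 2, ZPBP2 in prostate against bulbourethral gland fell to 0.87 and lost the call, and without DSE bulbourethral replicate 1 SPACA4 lost it at -1.25.

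Epididymis against bulbourethral gland called 5 genes, with 21.3% of all genes called. ACRBP (3.81 ± 0.44), DPY19L2 (3.66 ± 0.27), ZPBP (2.32 ± 0.22) and ZPBP2 (1.25 ± 0.32) were higher in epididymis. SPACA4 was lower (-1.22 ± 0.42, limma adjusted p = 0.0263), a call that was lost without any 1 of 6 libraries, named with the values that depend on processing. Against vesicular gland and against prostate gland 3 genes were called, ACRBP, DPY19L2 and ZPBP, all higher in epididymis, where 36.5% and 21.3% of all genes were called. The order of glands was thus testis, then epididymis, then the accessory glands for ACRBP, DPY19L2 and ZPBP. Of the other genes only ZPBP2 and SPACA1 reached 1 TPM in at least 3 libraries of epididymis and vesicular gland, and neither met both thresholds there. With size factors ZPBP2 was called lower in epididymis (-1.04 ± 0.32, limma adjusted p = 0.0131), where it was -0.36 without them.

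The third comparison set BMI against DSE within each gland. In testis all 9 genes had a higher mean in BMI, but none passed limma's test, in which 0.621% of the 16414 genes tested were called. SPACA4 gave the largest value, 1.43 ± 0.54 on the log2 scale (limma adjusted p = 0.314), followed by SPACA1 (1.20 ± 0.47), SPACA3 (1.02 ± 0.46), SPAM1 (0.97 ± 0.42) and ACR (0.91 ± 0.43). ACRBP (0.77 ± 0.47), ZPBP2 (0.68 ± 0.45), DPY19L2 (0.68 ± 0.43) and ZPBP (0.65 ± 0.43) were smaller, and the highest limma adjusted p was 0.498. The median over the 9 genes was 0.91, beside 0.10 over all genes tested. All BMI libraries lay above all DSE libraries for ACR and ACRBP, 2 of 9 genes, as they did for 17% of all genes. Before adjustment 3 of the 9, SPACA4, SPACA1 and SPAM1, had a limma p under 0.05, as did 13.6% of all genes tested.

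The DSE testis libraries were unlike each other. As a percent of the BMI mean, replicate 2 held 20.4% (SPACA4) to 30.9% (ZPBP) for every member, replicate 3 held 83.3% (ACR) to 96.6% (DPY19L2), and the summed spermatid and sperm markers held 30.3% and 94.3% in the same libraries. In replicate 1 the genes parted. ZPBP2 held 96.0%, ZPBP 94.6% and ACRBP 87.9%, with DPY19L2 at 76.8% and ACR at 66.9%. SPACA3 held 51.2%, SPAM1 48.8%, SPACA1 38.8% and SPACA4 26.2%, while the summed markers stood at 138%. Of the 12 markers in that sum, 9 were above the BMI mean, led by TNP2 (179%), a transition protein of late spermatids, and 3 below it, with SMCP, a protein of sperm mitochondria, lowest at 81.6%. The summed spermatocyte markers, genes of meiotic cells, stood at 63.1% in replicate 1, 29.5% in replicate 2 and 87.3% in replicate 3, at 173 TPM in replicate 1 against 247 to 296 TPM in BMI. The part of these markers in the values was not tested. These 4 genes were singled out after their values were seen.

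**Figure D3:**
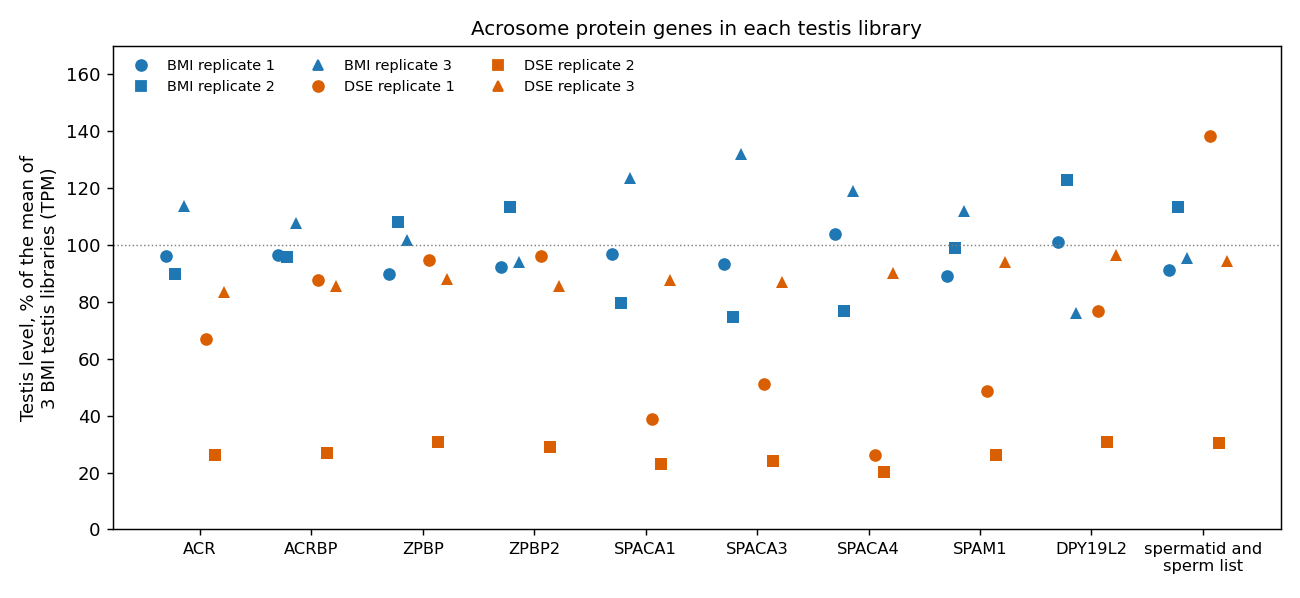
Each DSE testis library as a percent of the BMI testis mean, for the 9 genes and the summed spermatid and sperm markers. Replicate 2 lies between 20.4% and 30.9% throughout, replicate 3 between 83.3% and 96.6%, and replicate 1 spreads from 26.2% (SPACA4) to 138% (markers).

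Without DSE testis replicate 2, the breed values became 1.01 ± 0.46 for SPACA4, 0.75 ± 0.34 for SPACA1, 0.54 for SPACA3 and SPAM1, 0.41 for ACR, and 0.13 to 0.20 for ZPBP, ZPBP2, DPY19L2 and ACRBP, with limma adjusted p between 0.277 and 0.742. Without DSE testis replicate 3, SPACA4 reached 2.08 ± 0.32 and passed the test (limma adjusted p = 0.0463).

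The Iso-seq libraries of testis gave another reading, with 1 library for each breed and so no test between breeds. Of the full-length reads on listed isoforms, 455023 in BMI testis and 457778 in DSE testis, SPACA1 had 100 and 31, SPACA3 had 17 and 4, and SPAM1 had 40 and 12. Scaled to the reads of each library, DSE held 30.8% of the BMI value for SPACA1 (95% exact interval 19.9% to 46.5%), 23.4% for SPACA3 (5.73% to 71.7%) and 29.8% for SPAM1 (14.2% to 58.0%). These intervals cover counting error only.

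The counts of ACRBP, ZPBP, ZPBP2 and DPY19L2 were closer. ACRBP had 481 and 383 reads, DSE holding 79.1% of BMI (69.0% to 90.7%), and ZPBP had 85 and 72, or 84.2% (60.6% to 117%). ZPBP2 had 205 and 193 reads, or 93.6% (76.5% to 114%), and DPY19L2 had 752 and 680, or 89.9% (80.9% to 99.8%). The intervals of SPACA1 and SPAM1 thus lay below those of ACRBP, ZPBP, ZPBP2 and DPY19L2, and that of SPACA3 overlapped them in part. ACR had 2 reads in BMI and 0 in DSE, which leaves the interval of their ratio open up to 529%, and SPACA4 had none in either. Nothing in the labels says whether the DSE Iso-seq library came from the boar of an RNA-seq library.

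In epididymis 4 of the 9 genes had levels high enough for a breed test, and 0 of 15402 genes were called (0%), 292 being under 0.05 before adjustment. ACRBP was higher in BMI by 2.09 ± 0.99 and ZPBP by 1.11 ± 0.44 on the log2 scale, both with a limma adjusted p of 1.0. The ACRBP value ran from 1.08 without DSE replicate 1 to 3.12 without DSE replicate 3. ZPBP was the only one of the 9 whose BMI libraries all lay above the DSE libraries in epididymis, as did those of 2.57% of all genes. The summed spermatid and sperm markers measured 137, 1123 and 49.9 TPM in BMI epididymis and 273, 24.2 and 109 TPM in DSE epididymis. BMI replicate 2 was highest in the markers and in ACRBP, but DSE replicate 1, second in the markers, was lowest in ACRBP, and DSE replicate 2, lowest in the markers, was second in DPY19L2. The summed markers of epididymis epithelium measured 1890, 32090 and 4261 TPM in BMI and 10978, 1649 and 5846 TPM in DSE. Muscle markers measured 8459, 1635 and 3405 TPM in BMI and 2475, 12694 and 4893 TPM in DSE. BMI replicate 2, highest in ACRBP, was thus also highest in epithelium and lowest in muscle markers. The part of the markers in the breed values was not tested. DPY19L2 gave 0.51 ± 0.57 and ZPBP2 -0.36 ± 0.54. The DPY19L2 value shrank most without BMI replicate 3, its highest library (27.1 TPM).

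In the accessory glands, 1 or 2 of the genes could be tested and none was called, where limma called 1.18% of genes for vesicular, 0.0218% for bulbourethral and 0.341% for prostate gland. The lowest unadjusted limma p of a member was 0.0954, for ZPBP2 in prostate gland. ZPBP2 gave -0.42 ± 0.39 in vesicular gland and -0.69 ± 0.36 in prostate gland (limma adjusted p = 0.214). The vesicular gland value shrank most without DSE replicate 2, its highest library (5.45 TPM). The 3 DSE prostate libraries lay within 1.92 to 1.99 TPM, and those of BMI at 0.436, 2.33 and 0.287 TPM. The highest of these, replicate 2, is the prostate library with vesicular gland markers at 220135 TPM. Without it the ZPBP2 value was -1.12 ± 0.19 and passed the test (limma adjusted p = 0.0248), and the share of all genes called rose to 7.04% (938 genes in place of 46). ACRBP gave -0.20 ± 0.31 in vesicular gland and SPACA4 0.22 ± 0.64 in bulbourethral gland.

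Whether the breed difference in testis differed from that in epididymis was tested as an interaction. For the 4 genes with levels high enough in both glands it was -1.33 ± 0.87 (ACRBP), -0.47 ± 0.45 (ZPBP), 0.17 ± 0.54 (DPY19L2) and 1.04 ± 0.64 (ZPBP2), with limma adjusted p of 0.554 to 0.958. None was called, where 2.61% of all genes were. Without DSE testis replicate 2 the values of ACRBP and ZPBP were lower, that of ZPBP2 was smaller and that of DPY19L2 turned to -0.32. The ACRBP value shrank most without DSE epididymis replicate 1. The other 5 genes were too low in epididymis for a breed difference there, so their values mostly restate that of testis and are not read.

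The isoforms were taken from the Iso-seq table, in which 3057 full-length testis reads fell on the 9 genes. Outside testis there were 16 reads of DPY19L2, 9 of ACRBP, 8 of ZPBP2, 3 of ZPBP and 1 of SPAM1 over 8 libraries. Reads and TPM ranked the genes differently. DPY19L2, which only SPAM1 lay below in TPM, had the most full-length reads (1432), followed by ACRBP (864), ZPBP2 (398), ZPBP (157) and SPACA1 (131). ACR had 2 reads, both in BMI testis, at a mean of 344 TPM. SPACA4 had none at 396 TPM, where a count of 0 allows up to 3 reads in each library.

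Per TPM, the testis reads numbered 10.2 for DPY19L2, 1.46 for SPAM1, 1.38 for ZPBP2, 1.16 for ACRBP, 0.561 for SPACA1, 0.452 for ZPBP, 0.106 for SPACA3 and 0.00581 for ACR. The most-read isoforms of these genes were 4526, 1988, 2324, 1890, 1042, 2475, 796 and 1329 bases long. Among the genes with reads, the one with the most per TPM was the longest, and ACR, with the fewest, was longer than SPACA1 and SPACA3. SPACA4, with 0 reads, has a single exon in the annotation (chr6:53968485-53968865), a shorter span than any length above.

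ACRBP had 8 isoforms. The form with all 10 exons, PB.14761.12, an open reading frame of 539 residues, took 828 of 864 testis reads, 95.8% (95% exact binomial interval 94.3% to 97.1%). The form without exon 9, PB.14761.14, took 13 reads (1.5%, 0.804% to 2.56%) and the form without exon 2, PB.14761.13, took 11 (1.27%, 0.637% to 2.27%). Their reading frames were 511 and 466 residues.

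Rarer ACRBP forms were the one without exon 7 (PB.14761.11, 3 reads, 479 residues) and the one whose exon 2 starts 60 bases later (PB.14761.9, 3 reads, 519 residues). A form that keeps intron 8 (PB.14761.10) had 2 reads, both in DSE testis, and was the only ACRBP form predicted to be a target of nonsense-mediated decay, the pathway that removes transcripts with an early stop. A pair of shorter forms that match part of the known transcript, PB.14761.8 and PB.14761.16, had 2 reads each.

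Where an isoform matches every splice site of an Ensembl transcript, the TPM of that transcript are given for it, as for PB.14761.12 here and for the leading forms of ZPBP2, ZPBP, SPACA1 and SPAM1. In TPM the full form held 85.6% of ACRBP in testis and the form without exon 2 held 9.68%, against 1.27% of the reads. The form without exon 9 held 3.11%, the one with the shorter exon 2 1.03%, the one without exon 7 0.357% and the one with intron 8 0.244%. The form without exon 2 held 7.53%, 9.10% and 11.3% in BMI and 11.3%, 9.83% and 9.04% in DSE. The breeds overlapped, at 9.30% ± 1.88 and 10.1% ± 1.17 (SD, n = 3 each, exact permutation p = 0.5, two-sided). In epididymis the full form held 96.9%, 97.3% and 88.2% in BMI and 0%, 99.6% and 96.3% in DSE. The library at 0%, DSE replicate 1, had 1.88 TPM of ACRBP, all assigned to the form without exon 2. Of the 12 full-length reads of that form, 1 was from BMI epididymis and 0 from DSE epididymis. The full form had 3 and 1 in the same libraries.

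**Figure D4:**
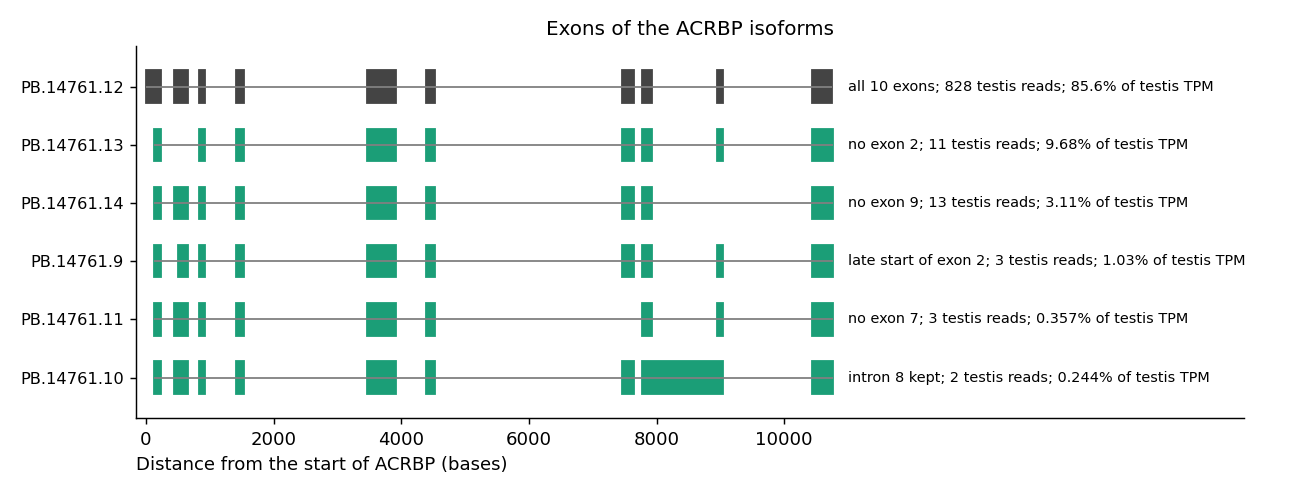
Exons of the ACRBP isoforms drawn to scale against distance from the start of the gene in bases, with their full-length testis reads. The top form, drawn from its Ensembl model, has 10 exons and 828 reads, and the forms that lack exon 9, exon 2 or exon 7 have 13, 11 and 3.

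ACRBP shares its locus with other transcripts. A read-through form that joins it to the neighbouring gene ENSSSCG00000044078 covers 2023 exonic bases of ACRBP, and was given 3.85 to 14.1 TPM in testis, where it had 0 full-length reads. It had 1 read in BMI vesicular gland and 1 in DSE bulbourethral gland, and is not counted in ACRBP here. An antisense transcript overlaps ACRBP by 41 bases.

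ZPBP2 had 10 isoforms and the most even use. PB.3570.160 (326 residues) took 203 of 398 testis reads, 51.0%. PB.3570.162, with a first exon of 108 in place of 241 bases (chr12:22462781-22462888), took 102 reads (25.6%) and has a predicted frame of 272 residues. PB.3570.161, whose exon 7 lacks the 73 bases printed above, took 55 (13.8%, 311 residues), and PB.3570.163 took 22 (5.53%, 257 residues).

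In TPM the order turned over. A group of 3 ZPBP2 forms with an added last exon at chr12:22450656-22450803 (148 bases), PB.3570.156, PB.3570.157 and PB.3570.158, held 72.1% of ZPBP2 in testis with 9 full-length reads, all in DSE, while the other 7 forms held 27.9% with 389 reads. The 3 forms were 1348 to 1554 bases long, the other 7 were 2032 to 2324, and the 3 were predicted targets of nonsense-mediated decay. Reads and TPM thus differed on which ZPBP2 form was most used. Since TPM are divided by length, the summed level of ZPBP2 depends on this assignment, by an amount that was not tested.

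The other genes had 1 leading form. ZPBP used PB.20506.2 in 126 of 157 reads (80.3%), and a form predicted for decay, PB.20506.1, in 14 (8.92%), which held 92.2% and 5.46% of its TPM. SPACA1 used PB.429.2 in 129 of 131 reads and 99.8% of its TPM. SPACA3 used PB.3704.2 in 16 of 21 reads and 85.1% of its TPM. SPAM1 used PB.9537.1 (493 residues) in 47 of 52 reads and 77% of its TPM, and the form without exon 3, PB.9537.2 (463 residues), in 3 reads (5.77%, 1.21% to 15.9%) and 22.2% of its TPM.

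DPY19L2 had 18 isoforms. PB.9620.74, of 4526 bases and 775 residues, took 1303 of 1432 testis reads (91.0%) and 71.5% of the TPM. PB.9620.85 (2579 bases) took 8 reads (0.559%) but 11.07% of the TPM, and PB.9620.82 (2781 bases) took 2 (0.140%) but 7.91%. Thus in DPY19L2, SPAM1, ACRBP and ZPBP2 a form with few reads held a larger share in TPM. The Ensembl model of DPY19L2, which leaves the 14 bases printed above as a gap in exon 1, was at 0 TPM in testis, as were 3 other forms. Full-length testis reads numbered 5 for PB.9620.90 and 2 each for PB.9620.86 and PB.9620.100, the 3 other forms. A value of 0 TPM thus does not show that a form is absent from testis. In epididymis these 4 forms held 43.8% of the DPY19L2 level in BMI replicate 3 and 87.9% in DSE replicate 1, and none of it in the other 4 libraries. Without them the epididymis libraries held 0.557% to 13.03% of the mean testis level, in place of 4.6% to 19.3%. PB.9620.81 and PB.9620.88 had 2 reads each, all in DSE epididymis and none in testis.

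**Figure D5:**
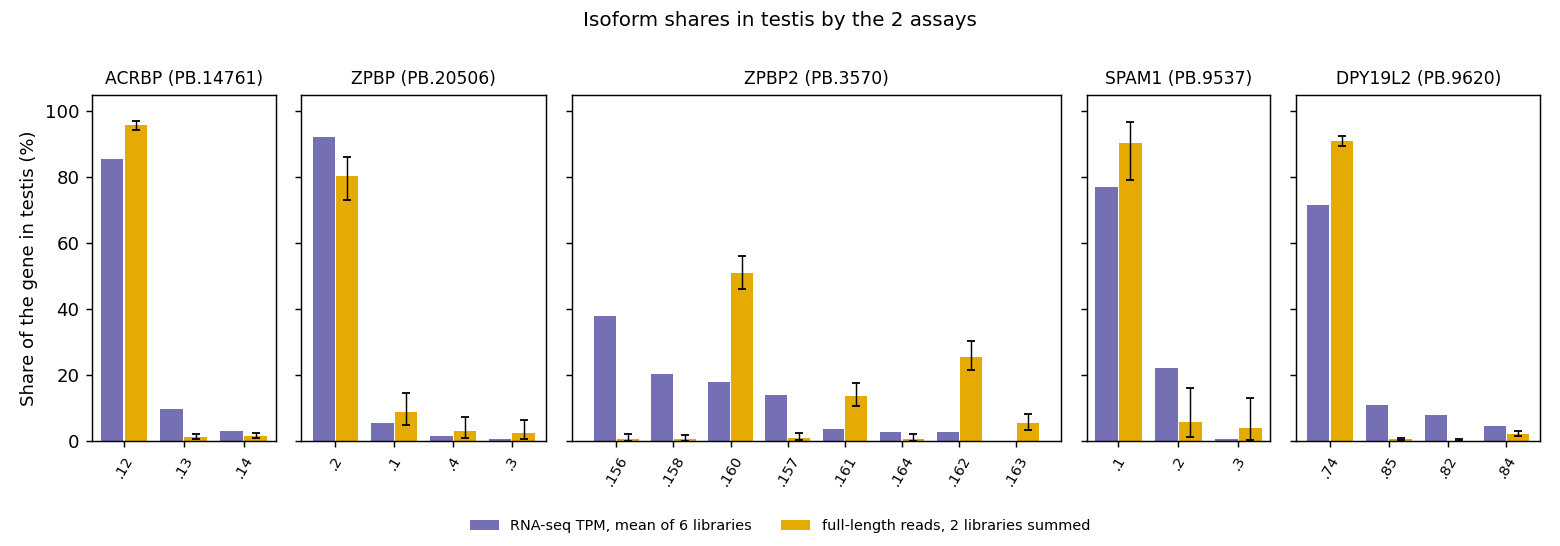
Isoforms of ACRBP, ZPBP, ZPBP2, SPAM1 and DPY19L2 with the larger shares of their gene in testis, as percent of full-length reads (with 95% exact binomial intervals) and as percent of TPM. ACRBP PB.14761.12 takes 95.8% of reads and 85.6% of TPM, and ZPBP2 PB.3570.160 takes 51.0% of reads but 17.9% of TPM.

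The share of an isoform in its gene was compared between the breeds in testis for the 17 isoforms with at least 5% of TPM. With 3 libraries a breed the smallest exact permutation p is 0.1, and the 17 values were 0.3 to 0.9, with adjusted p of 0.85 to 0.90. At the level of single transcripts 33 from the 9 genes were tested and 0 were called by limma, where 0.698% of 38994 transcripts were, and 4 of the 33 had an unadjusted limma p under 0.05, beside 11.9% of all transcripts. The smallest limma adjusted p among them was 0.185, for PB.20506.3 of ZPBP at 1.91 ± 0.48. Of 104 distinct introns in the isoforms of the 9 genes, 95 (91.3%) had GT-AG ends.

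Other acrosome genes were followed as lists. Over all genes tested 34.5% were higher in testis and 12.7% lower. Of 15 further genes of acrosome content and membrane, 12 were tested, 11 were higher in testis and none lower, with a median of 5.42 beside 0.31 over all genes. CRISP2, for a cysteine-rich secretory protein of the acrosome, had the highest testis level (1774 TPM, difference 10.08), and SPACA6, a gene needed for sperm-egg fusion, was not called (-0.58 ± 0.22). Of 23 genes of acrosome biogenesis and attachment, 21 were tested and 16 were higher in testis, with a median of 5.13. ACTL9, an actin-like protein of the sperm head, led at 444 TPM (8.40), and VPS54, a subunit of a vesicle-tethering complex used in all cells, was not called (-0.30 ± 0.23).

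Of 14 listed relatives of the 9 genes outside the acrosome, 11 were tested, 3 were higher in testis (HYAL4, 3.05, PRSS12, 2.0, and DPY19L1, 1.55) and 3 lower (PRSS8, -6.65, LYZ, -2.45, and LY6E, -2.17), with a median of -0.21. HYAL2, the hyaluronidase of most tissues, had the highest testis level of this list (38.2 TPM, against 35.7 TPM for SPAM1) and did not differ past the threshold (0.12 ± 0.12). Between the breeds in testis 0 genes of each list were called, where 0.621% of all genes were. Medians were 0.97 for content and membrane, 0.64 for biogenesis and 0.11 for relatives, beside 0.10 over all genes. DSE testis replicate 2 held the lowest sum of content and membrane genes (964 TPM, testis median 2787) and of biogenesis genes (867 TPM, median 2906). Its part in the medians was not tested.

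In epididymis against the accessory glands, where 17.6% of all genes were higher and 2.43% lower, the calls fell among the genes that reached 1 TPM in at least 3 of the 24 libraries outside testis. They were 2 content and membrane genes, 2 biogenesis genes and 2 relatives, and no share is read from them. Of the genes tested, 8 of 12, 9 of 21 and 2 of 11 in the same order entered the fit through testis alone and could hardly be called. CRISP2 (1.51) and ZAN (1.18), for the zona-binding protein zonadhesin, were higher among content and membrane genes. CALR3 (2.01), a testis chaperone, was higher and GALNT3 (-1.03), a glycosyltransferase, was lower among biogenesis genes, and DPY19L1 (1.01) was higher and LYZ (-1.62) lower among relatives.

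Across the 30 libraries, the genes whose log2(TPM + 1) was most like the mean of the 9 were TSNAXIP1 (Pearson's r = 0.997), TULP2 (0.996), CCT6B (0.996), BEST1 (0.995) and HSPA1L (0.994), of 13871 genes with a symbol. Among the 9, ACR was most like SPAM1 (0.996), SPACA3 most like ACR (0.996), SPACA1 most like SPACA3 (0.994), ZPBP most like SPACA3 (0.975), ZPBP2 most like SPACA1 (0.972), ACRBP most like DPY19L2 (0.970) and SPACA4 most like SPAM1 (0.969). The lowest value within the 9 was 0.812, between SPACA4 and DPY19L2. The libraries are shared by all these genes and the testis libraries stand apart from the rest in each, so the values are a description.

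The 250 bases before the start of the most abundant transcript of each gene were searched on both strands for 3 motifs. The full cyclic AMP response element TGACGTCA was in 0 of 9, and in 1.53% of 34676 such windows. Its shorter part TGACG, which lies within it, was in 4 of 9 (ACR, ACRBP, SPACA4 and DPY19L2) and in 18.3% of windows, and GTTGCC, part of the site of RFX factors, was in 1 of 9 (SPACA3) and in 10.6%. A match describes the letters only.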

How the data were processed

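RNA-seq and Iso-seq of 5 glands from 2 pig breeds were used, and the small RNA table was not used. For RNA-seq the authors deposited TPM, estimated by Salmon (1.9.0 in the submitters' processing notes) on the Ensembl annotation merged with Iso-seq isoforms (susScr11, Sscrofa11.1). The table covers 133722 transcripts, without counts. The Iso-seq values are deposited counts of full-length reads per isoform, made by the authors by clustering, alignment, collapsing and classification with SQANTI3, which also gave lengths, reading frames and predicted decay. The labels name rRNA depletion and the paper's methods poly-T beads for RNA-seq, so the selection of RNA is unsure. The counting of strand was not stated, and antisense transcripts overlap ACRBP and SPACA1 by 41 and 44 bases.

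TPM were summed by gene symbol. Genes that reached 1 TPM in 3 or more libraries entered a fit with limma 3.58.1 (trend, R 4.3.3) on log2(TPM + 1). Gland contrasts used 1 fit of all 30 libraries and breed contrasts 1 fit per gland. Called means a Benjamini-Hochberg adjusted p below 0.05 over all genes and at least 1 log2. On simulated data with 200 changed genes, 97% of 2 log2 changes were recovered for testis against the other glands (19911 genes). For the breeds in testis (16414 genes) 60% of 2 log2 and 97% of 4 log2 changes were recovered. False calls numbered 3, 3 and 11 in the same order. Smaller changes, such as the 0.65 to 1.43 of the 9 genes between the breeds in testis, were not simulated. Isoform shares were compared by exact permutation. Read shares have exact Clopper-Pearson intervals of 95%, and the limit for a count of 0 is 3 counts. Promoter windows were cut from the genome at the annotated starts, which for ACR and SPACA4 may be starts of coding sequence.

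The members and lists were chosen with earlier results of these data known. Named were all members, the 5 genes most like their mean, the nearest member of each, the highest and least testis-biased gene of each list, and isoforms by reads or by 5% of TPM. Genes called in a list, markers and further isoforms were named after their values were seen. Alternatives were a pseudocount of 0.1, no or a stricter filter, size factors, sums by gene identifier, a replicate block, 1 fit of all glands, isoforms of at least 5 reads, fusion isoforms and leaving out each library.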

Additional observations from a re-analysis of the deposited data

How the results depend on the processing

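The calls of the 9 genes in testis against the other glands held in number (9 to 9) under all alternatives and without each library. Size factors moved the median of all genes by -0.18 for testis against the other glands, -0.34 for epididymis against the accessory glands, -0.64 for epididymis against vesicular gland, -0.59 for testis against vesicular gland, 0.46 for vesicular against bulbourethral gland and 0.36 for BMI against DSE in prostate gland, and the genes' values move with it. The share of calls that were higher went from 87.9% to 68.2% for epididymis against the accessory glands, from 94.7% to 62.7% for epididymis against vesicular gland, from 84.8% to 67.1% for testis against vesicular gland, from 14.9% to 53.6% for vesicular against bulbourethral gland, from 23.2% to 52.8% for vesicular against prostate gland, from 26.3% to 49.2% for prostate against bulbourethral gland, from 82.8% to 63.3% for epididymis against prostate gland, from 77.3% to 45.4% for the breeds in vesicular gland and from 10.9% to 42.9% for the breeds in prostate gland. With a pseudocount of 0.1 the members called rose from 3 to 6 for epididymis against the accessory glands, against vesicular gland and against prostate gland, from 5 to 8 against bulbourethral gland, from 2 to 3 for vesicular against bulbourethral gland and from 0 to 1 for vesicular against prostate gland (DPY19L2 in both), with ACR at 1.51, SPACA1 at 2.15 and SPACA3 at 2.20 against the accessory glands. The same setting turned the interaction of ACR to -0.43 and of SPACA3 to -1.10, and size factors turned ZPBP2 in epididymis against the accessory glands to -0.0112. Size factors took the members called from 3 to 4 for epididymis against vesicular gland (ZPBP2) and from 2 to 3 for vesicular against bulbourethral gland (ACRBP). The cause of these turns was not tested.

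Without each library in turn, the members called were 3 to 3 for epididymis against the accessory glands, 4 to 5 against bulbourethral gland, 1 to 2 for prostate against bulbourethral gland, and 0 to 1 for the interaction (SPAM1 without DSE testis replicate 3, at most 0.326 TPM in epididymis) and for the breeds in testis and in prostate gland. For single genes, ranges that crossed 0 were -0.58 to 0.0146 for SPACA4 in epididymis against the accessory glands (above 0 without BMI epididymis replicate 1 or 3), -0.80 to 0.0435 for ZPBP2 between the breeds in epididymis, -0.36 to 0.0435 for ACRBP in vesicular gland, -0.59 to 0.73 for SPACA4 in bulbourethral gland, and for the interaction -0.0698 to 0.88 for ACR, -0.0297 to 0.88 for SPACA3 and -0.32 to 0.61 for DPY19L2. Several isoform shares between the breeds also crossed 0. ZPBP2 between the breeds in prostate gland ran from -1.12 to -0.43, and SPACA4 between the breeds in testis from 1.01 to 2.08. SPACA4 in epididymis against bulbourethral gland lost its call without BMI epididymis replicate 1 or 3 (-1.02 each), DSE epididymis replicate 3 (-1.16), BMI bulbourethral replicate 1 (-1.14), or DSE bulbourethral replicate 1 (-0.96) or 2 (-1.07).

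The replicate number as a block changed no count of members called (9 in testis against the other glands, 0 between breeds in testis). The numbers were not taken to pair the libraries, since the labels name no shared animal and not every pair deviated together. Over 60 pairs of the same breed r was -0.301 to 0.390 (median 0.0471), and over 0.1 in 20 of them. Of 30 libraries, 21 correlated best with their own number among the 3, a hint of pairing from the data only. All-gene counts moved more. For the breeds in testis 102 became 31 without a filter, 45 with the stricter one, 258 with the replicate block, 949 in 1 fit of all glands, and 3 to 258 without each library, the last without DSE testis replicate 2. For vesicular gland 150 became 1, 68, 678 and 95 in the same order of settings, and for prostate gland 46 became 0 without a filter, 29 with the stricter one, 0 with the block, 119 in 1 fit, 18 with a pseudocount of 0.1, 21 with size factors and 0 to 938 without each library, the last without BMI prostate replicate 2. Without each library vesicular gland gave 57 to 445. For bulbourethral gland 3 became 0 without a filter, 10 with a pseudocount of 0.1, 15 with size factors and 59 in 1 fit, and for epididymis 0 became 140 in 1 fit. A pseudocount of 0.1 took epididymis against the accessory glands from 3997 to 6345, vesicular against prostate gland from 2940 to 4610 and the interaction from 519 to 216. Size factors took epididymis against vesicular gland from 7261 to 3084 and vesicular against bulbourethral gland from 5528 to 3257. Transcripts called between the breeds in testis went from 272 to 135 with a pseudocount of 0.1, 82 without a filter, 40 with the block and 2 to 250 without each library (2 without BMI testis replicate 1). With isoforms of at least 5 reads, testis reads fell from 3057 to 3004 and those of ACR from 2 to 0. The TPM table carries no depth, and Iso-seq has 1 library per group.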

Other observations

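The start of SPACA1 is overlapped on the other strand, over 44 bases, by an unnamed antisense gene. Its 5 isoforms had 18 full-length reads, 12 in BMI testis and 6 in DSE testis, and the 4 of them that have TPM summed to 2.45 to 15.4 TPM in the 6 testis libraries, the lowest in DSE replicate 2. SPACA1 itself had 131 full-length testis reads. Because the counting of strand was not stated, RNA-seq reads in the shared bases cannot be told apart.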
